A study of Mus musculus and Rattus norvegicus with 28 samples.

Results

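Accessible chromatin of mouse cardiomyocytes was compared between postnatal day 3 (P3) and postnatal day 1 (P1), with 2 ATAC-seq libraries per age. Overlapping peaks of the 4 peak lists were merged into 110060 regions. A region was gained when both P3 libraries and neither P1 library held a peak in it, and lost in the opposite case. This gave 30405 gained regions (27.6%) and 2379 lost regions (2.16%), 32784 in all, beside 7672 regions held by all 4 libraries (shared regions) and 69604 others. Merging the 8 mouse peak lists of the series gave 113857 regions.

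The study followed ventricular cardiomyocytes of wild-type C57BL/6 mice through birth, at embryonic day 18.5 (E18.5), P1, P3 and P7, with 2 ATAC-seq and 2 RNA-seq libraries per age. Cells came from the left ventricles of male and female pups without treatment, and attachment to plastic was used to remove other cells before the libraries were made. The libraries of an age are named rep1 and rep2, described as biological replicates, and the sources used here do not tie an ATAC-seq library to an RNA-seq library. With 2 libraries against 2, a two-sided exact permutation test cannot go below p = 0.33, so no region was tested for presence.

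In ATAC-seq a transposase inserts adapters where DNA is open, and pile-ups of such insertions are called as peaks at active promoters and enhancers. Heart muscle cells leave the cell cycle, turn from glycolysis to fatty acid oxidation and rebuild the sarcomere soon after birth. AP1, a dimer of FOS and JUN proteins, binds the letters TGACTCA, or TGAGTCA on the other strand, at enhancers of many cell types. MEF2 proteins bind an AT-rich element at promoters and enhancers of muscle genes.

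Gained and lost regions differed in their sequence, and examples of each kind come first. The following stretches lie within gained regions and carry the AP1 letters, in capitals, 6 to 95 bp from the peak summit. The summit is the position of highest signal. All stretches are the plus strand of GRCm38.p6 (mm10), 5′ to 3′, and overlap no exon. The first is chr7:34213473-34213559 in an intron of Gpi1 (glucose-6-phosphate isomerase of glycolysis), the second chr13:6624328-6624414 in an intron of Pfkp (platelet phosphofructokinase), and the third chr1:90771265-90771351 in an intron of Col6a3 (a collagen VI chain). The fourth is chr8:104110951-104111037 in an intron of Cdh5 (VE-cadherin of endothelial junctions), and the last chr6:37863122-37863208, outside genes and in the region 7609 bp from the start of Trim24 (a transcriptional co-regulator).
Gpi1: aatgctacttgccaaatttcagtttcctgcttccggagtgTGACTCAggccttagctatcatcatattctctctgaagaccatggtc
Pfkp: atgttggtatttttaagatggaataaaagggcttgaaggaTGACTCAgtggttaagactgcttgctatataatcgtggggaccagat
Col6a3: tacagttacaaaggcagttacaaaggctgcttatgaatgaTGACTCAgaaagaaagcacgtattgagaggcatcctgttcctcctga
Cdh5: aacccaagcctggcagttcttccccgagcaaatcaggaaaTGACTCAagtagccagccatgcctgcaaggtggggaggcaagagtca
Trim24: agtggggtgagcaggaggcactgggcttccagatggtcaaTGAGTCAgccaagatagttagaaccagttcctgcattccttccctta

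MEF2 letters were found in some lost regions, and 2 such stretches are shown, chosen after their values were seen because both genes encode parts of the sarcomere. They lie at chr14:34544724-34544813 in an intron of Ldb3 (a Z-disc protein) and at chr4:46040791-46040880 in an intron of Tmod1 (tropomodulin, which caps thin filaments), neither overlapping an exon. The MEF2 match is in capitals.
Ldb3: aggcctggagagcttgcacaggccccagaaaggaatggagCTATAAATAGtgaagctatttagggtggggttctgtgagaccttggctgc
Tmod1: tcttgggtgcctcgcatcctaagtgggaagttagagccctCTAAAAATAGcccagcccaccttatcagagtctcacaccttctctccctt

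Most lost regions lay in repeat sequence, and these 3 stretches show the kind, with the first copy of the repeated unit in capitals. They are chr10:93233246-93233335 in an intron of Cdk17 with a unit of 12 bp, chr1:156912067-156912156 in an intron of Ralgps2 with a unit of 15 bp, and chr14:35692623-35692712, outside genes and 955359 bp from Wapl, the nearest gene tested in RNA, with a unit of 7 bp.
Cdk17: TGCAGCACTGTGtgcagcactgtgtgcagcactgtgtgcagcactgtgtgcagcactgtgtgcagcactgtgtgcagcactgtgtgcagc
Ralgps2: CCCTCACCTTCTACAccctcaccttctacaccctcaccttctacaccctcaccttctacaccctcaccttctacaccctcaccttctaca
Wapl: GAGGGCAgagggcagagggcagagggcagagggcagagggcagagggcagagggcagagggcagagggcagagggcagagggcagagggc

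The peak lists of the 2 ages differed before any region was compared. P1 rep1 held 29281 peaks and P1 rep2 held 19753, against 95257 in P3 rep1 and 52040 in P3 rep2. The median peak was 181 and 191 bp wide at P1, and 324 and 393 bp at P3. P1 rep2 stood apart, since the share of regions it had in common with P1 rep1 (0.297, regions held by both over regions held by either) was below the share that P1 rep1 had in common with P3 rep2 (0.309). The 2 P3 libraries had 0.516 of their regions in common. Both P1 libraries also carried a peak-name prefix that neither P3 library had, so the prefix and the age cannot be told apart, and no comparison of P3 with P1 within a prefix was possible.

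Because of the unequal lists, each count was repeated with equal numbers, the 19753 peaks of highest −log10 q of each library. This left 4735 gained and 2600 lost regions of 40591, and 5710 regions held by all 4 libraries. Of the regions called with all peaks, 3450 gained and 1281 lost ones kept their class. Without P1 rep2 the counts were 30874 gained and 6632 lost, without P1 rep1 41546 and 9869, without P3 rep1 32710 and 3321, and without P3 rep2 73301 and 2426.

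**Figure D1:**
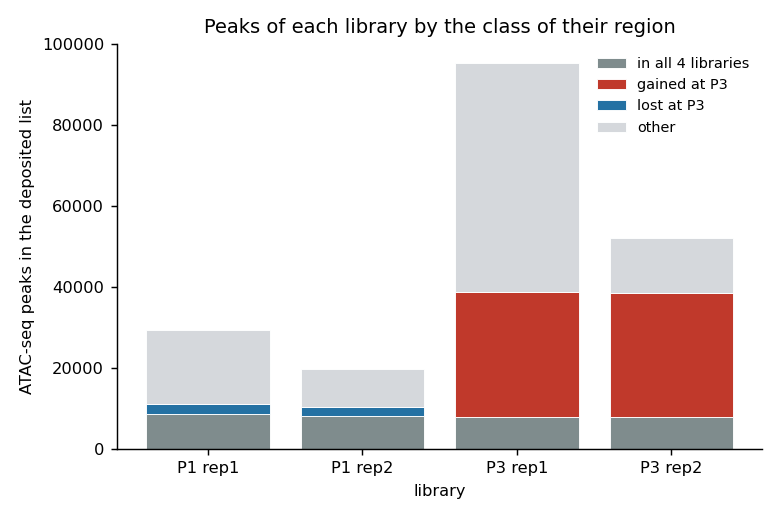
Number of ATAC-seq peaks in each of the 4 deposited lists (y axis) by library (x axis), coloured by the class of the merged region they fall in. The grey blocks of peaks in all 4 libraries are of like height in every library, while the P3 bars reach 95257 and 52040 peaks and the P1 bars 29281 and 19753.

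The place of the classes in the ranked lists differed between libraries. Of the 10% of peaks with the highest −log10 q, 87.5% in P1 rep1 and 72.2% in P1 rep2 lay in shared regions, and 1.26% and 11.5% in lost regions. In P3 rep2 69.9% of the strongest 10% lay in shared regions and 4.07% in gained ones, and in P3 rep1, the longest list, 46.0% and 18.5%. Of the weakest 10%, 77.2% in P3 rep2 and 7.84% in P3 rep1 lay in gained regions. Gained regions had a median summit fold enrichment (the authors' signal over local background at the summit) of 5.85 in P3 rep1 and 5.51 in P3 rep2, against 8.52 and 9.56 for shared regions and 4.998 and 6.004 for all peaks of these lists.

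Gained regions were seldom in repeat sequence and lost regions mostly were. A region was counted as repeat when over 50% of the 200 bp around its summit was soft-masked in the genome, or when at least 80% of these bases equalled the base a fixed distance of up to 60 bp further on, a tandem repeat. By this measure 897 of 30391 gained regions (2.95%), 1923 of 2359 lost regions (81.5%), 369 of 7637 shared regions (4.83%) and 12.6% of all regions were repeats. Tandem repeats alone made up 1142 lost regions (48.4%), with a median unit of 26 bp, and 34 gained regions (0.112%). Outside repeats 29494 gained and 436 lost regions remained.

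The share of peaks in repeat sequence followed the libraries. It was 18.7% in P1 rep1 and 43.0% in P1 rep2, against 4.70% in P3 rep1 and 3.22% in P3 rep2. Among the other ages it was 2.65% in E18.5 rep1, 16.1% in E18.5 rep2, 4.62% in P7 rep1 and 5.29% in P7 rep2. The 3 libraries with the highest shares, E18.5 rep2 and both P1 libraries, had the same peak-name prefix, and the other 5 had other prefixes. The part of the prefix in the lost regions was not tested. With equal numbers of peaks 64.0% of lost and 1.88% of gained regions were repeats, and without P1 rep2 62.3% of lost regions were, with 2488 lost regions outside repeats.

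**Figure D2:**
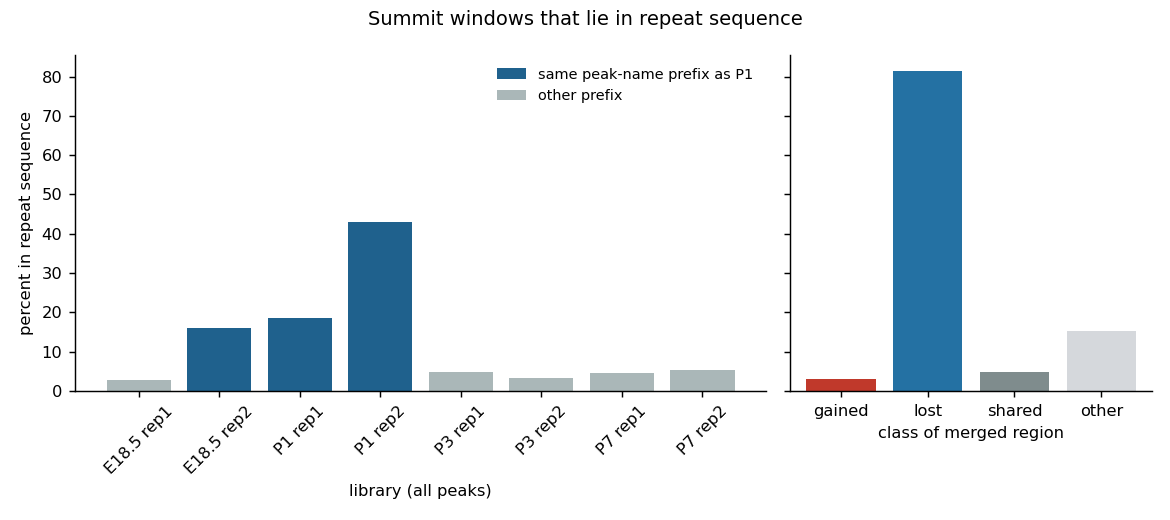
Percent of 200 bp summit windows that lie in repeat sequence (y axis), for all peaks of each of the 8 libraries (left, dark bars for the peak-name prefix of P1) and for the merged regions of the P3 and P1 lists by class (right). P1 rep2 reaches 43.0% and lost regions 81.5%, against 2.95% of gained regions.

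Among gained regions that also kept their class with equal numbers, the highest mean fold within 2.5 kb of a transcript start belonged to a region in the Ttc27 gene (chr17:74819528-74820135), with a fold of 18.2 in P3 rep1 and 12.4 in P3 rep2. It lay 79 bp from a start of the antisense transcript AC151410.1 and held 2 AP1 matches. The highest fold away from starts was that of the region near Trim24 shown above, 18.1 and 14.5, also with 2 AP1 matches. Cyp2j6, a cytochrome P450 of fatty acid epoxidation, had a gained region 191 bp from its start with folds of 14.8 and 11.96. The other gained regions picked by this rule take their names from the nearest gene tested in RNA, which could be far away. They were Senp7 (21132 bp), Fmn1 (18399 bp), Vrk2 (30128 bp), Sp3 (59410 bp), Txnrd3 (62788 bp), Rnd3 (156632 bp) and Tspan14 (1552856 bp, in a region within Nrg3). P7 rep1 held a peak in all 10. AP1 letters were in 5 of the 10 and not in those of Cyp2j6, Fmn1, Vrk2, Rnd3 and Sp3. The region of Senp7 was a tandem repeat with a unit of 42 bp and was held in both E18.5 libraries.

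Of the 10 lost regions picked in the same way 9 were repeats, against 1 of the 10 gained ones. The nearest genes tested in RNA were Cdk17 (5681 bp), Pdia3 (12004 bp), Cdk14 (24642 bp), Ralgps2 (26653 bp), Samd5 (33718 bp), Snora33 (164099 bp), Wasl (291956 bp), Asap1 (656516 bp) and Wapl (955359 bp). The lost region outside repeats lay 1409 bp from a start of Gm18377 and 144704 bp from Gm10180, the nearest gene tested. The region in Cdk17, a cyclin-dependent kinase, had a fold of 14.8 in P1 rep1 and 9.04 in P1 rep2, and that in Ralgps2, a Ral exchange factor, 13.1 and 8.32. These values chose the regions and are given as a description only.

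Gained regions were at promoters about as often as regions in general. Their midpoint was within 2.5 kb of a transcript start, called a promoter here, in 29.98% (95% exact binomial interval 29.5 to 30.5), against 30.4% of all regions and 69.9% of shared regions. Lost regions were at promoters in 14.0% (12.6 to 15.5). Within 500 bp of a start the shares were 17.0% of gained and 2.61% of lost regions. Outside repeats 30.3% of gained regions, 97 of 436 lost regions (22.2%) and 33.0% of all regions were at promoters. Regions are not independent samples, so these intervals cover counting error only. Without P1 rep2 the promoter share was 30.2% of gained and 16.3% of lost regions.

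Gained regions were held more often at P7 and less often at E18.5 than regions in general. P7 rep1 held a peak in 66.9% of them and P7 rep2 in 37.6%, against 42.3% and 30.04% of all regions. E18.5 rep1 held a peak in 6.37% of gained regions and E18.5 rep2 in 5.37%, against 11.4% and 11.7% of all regions. The E18.5 lists were the shortest, with 13149 and 14910 peaks, and the P7 lists held 49113 and 35898, so the shares at the 2 ages are not on the same footing. By rule a gained region is held by both P3 libraries and by no P1 library. All regions include 43772 held by 1 P3 library only and 11527 held by 1 P1 library only. The part of this rule in the contrasts was not tested. For the 3450 gained regions that kept their class with equal numbers the P7 shares were 97.5% and 72.0%. P7 rep1 and E18.5 rep1 had the peak-name prefix of P3 rep1, while P7 rep2 had a prefix of its own. The part of the prefix in these shares was not tested.

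Lost regions were seldom seen at other ages, with 71.7% of them in no E18.5 or P7 library, against 52.4% of all regions. Lost regions outside repeats were held in 8.72% and 12.8% at E18.5 and in 11.2% and 28.2% at P7, where lost repeats were held in 0.520% and 9.78% at E18.5 and in 9.15% and 14.3% at P7.

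AP1 letters were common in gained regions and rare in lost ones. They were found in the 200 bp around the summit in 6860 of 30391 gained regions (22.6%), 13 of 2359 lost regions (0.551%), 10.6% of shared regions and 18.01% of all regions. A shuffle of the same letters was found in 0.553% of gained regions. Away from promoters the AP1 share was 26.7% of gained and 25.1% of shared regions, against 20.99% of all regions away from promoters. Outside repeats it was 22.3% of gained, 1.61% of lost (7 of 436), 10.9% of shared and 19.5% of all regions. Without P1 rep2 it was 22.5% of gained and 1.62% of lost regions. With equal numbers it was 30.4% of gained and 2.77% of lost regions, and outside repeats 29.9% and 6.39%.

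The AP1 letters were concentrated at the summits. Counted in steps of 50 bp, gained regions held 79.9 and 84.9 matches per 1000 regions on the 2 sides of the summit and 8.03 and 8.68 at 500 bp from it. Shared regions peaked at 37.3 per 1000, and lost regions had 1.68 and 0.42 next to the summit, near the shuffled letters in gained regions (1.45 and 1.35). AP1 went with higher enrichment among gained regions away from promoters, where the 5681 regions with the letters had median folds of 6.91 and 5.69 in the P3 libraries and the 15594 without them 5.85 and 5.51. The letters were found in 30.4% of the strongest 10% of gained regions and in 13.0% of the weakest 10%.

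Other motifs also differed between the classes. The letters CATTCCA of TEAD factors, which act in heart growth, were found in 8.06% of gained and 0.975% of lost regions, and AGATAA of GATA factors in 10.5% and 1.65%, against 6.96% and 8.74% of all regions. Promoter motifs marked the shared regions, with GGGCGG of SP and KLF factors in 45.2% of them, 11.9% of gained regions and 12.5% of all regions. CCGGAAG of ETS factors was found in 10.6% of shared, 2.85% of gained and 3.02% of all regions. TTGGCA of NFI factors was in 16.0% of gained and 4.24% of lost regions, and in 13.7% of all. All motifs were searched on both strands, and a match is a description of the letters, not of binding.

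The share of lost regions with the MEF2 motif depended on repeats and on the P1 library. It was found in 0.678% of all lost regions (16), 1.96% of gained and 1.996% of all regions, and its shuffled form in 0.974% of gained regions. Outside repeats the same 16 matches were 3.67% of 436 lost regions, against 1.91% of gained, 1.65% of shared and 2.17% of all regions. AAGGTCA, the letters of the ERR receptors that drive mitochondrial genes, was found in 6.19% of lost regions outside repeats, 3.31% of gained and 3.46% of all regions outside repeats. These lost counts are small. Without P1 rep2 the MEF2 motif was found in 172 of 6595 lost regions (2.61%) and 1.96% of gained ones. Without P1 rep1 it was found in 44 of 9793 lost regions (0.449%) and 2.03% of gained ones, and its shuffled form in 1.81% of lost regions.

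**Figure D3:**
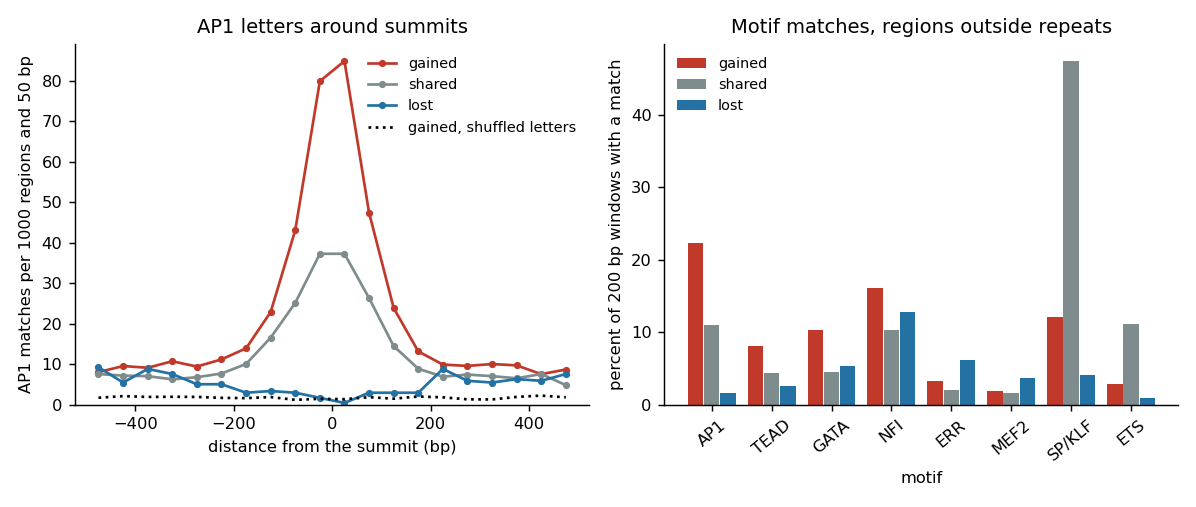
Left, AP1 matches per 1000 regions in steps of 50 bp (y axis) by distance from the summit in bp (x axis) for gained, shared and lost regions and for shuffled letters in gained regions. Right, percent of 200 bp summit windows outside repeats with a match (y axis) for 8 motifs; gained regions lead for AP1 (22.3%), lost regions for MEF2 (3.67%) and shared regions for SP/KLF.

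The genes at these regions were read in 16 lists of cell types and pathways. Of 13979 genes tested in RNA, 4967 (35.5%) had a gained and 154 (1.1%) a lost region at a promoter. The endothelial, fibroblast, epicardial and extracellular matrix lists lay above this background for gained promoters, at 10 of 12, 10 of 13, 5 of 7 and 12 of 22 genes, and none of their genes had a lost promoter. The cardiomyocyte list lay below it, with 2 of 20 gained (Tnnt2 and Tnni1, both troponin subunits) and 4 of 20 lost.

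Endothelial promoters were mostly without a peak at P1. P1 rep1 held a peak at 1 of the 12 and P1 rep2 at none, against 11 in P3 rep1 and 10 in P3 rep2. Over all genes tested in RNA the share with a promoter peak was 69.0% and 42.8% in the P1 libraries and 91.5% and 87.4% in the P3 libraries. The 10 gained genes were Pecam1, Cdh5, Kdr, Tek, Tie1, Flt1, Egfl7, Eng, Vwf and Adgrf5, cell-surface, adhesion and secreted proteins of vessel lining. Kdr, the main VEGF receptor, had a peak 31 bp from its start with folds of 5.28 in P3 rep1 and 7.77 in P3 rep2. Its region was held in both E18.5 libraries too. Tek, the angiopoietin receptor, had 6.43 and 5.85, and Cdh5 3.80 and 4.41 at 7 bp from its start. These were moderate peaks. With equal numbers of peaks none of the 12 had a gained promoter, where the background was 7.66%. At P7 the list had peaks at 10 and 4 promoters, and at E18.5 at 2 and 3.

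Gained peaks at fibroblast and matrix promoters varied in strength, beside medians of 5.85 in P3 rep1 and 5.51 in P3 rep2 for all gained regions. Among the weak ones, Col4a1 had folds of 2.01 and 3.33, and Mmp14 3.11 and 2.80. The following were above these medians. Dcn, the matrix proteoglycan decorin, had a gained peak 40 bp from its start with folds of 6.98 in P3 rep1 and 6.96 in P3 rep2. Mmp2, a gelatinase, had 8.40 and 6.71, and Lama2, a laminin chain of muscle basement membrane, 9.18 and 6.37. Mfap5, of elastic microfibrils, had 7.72 and 7.58, and Col8a1, a short-chain collagen, 6.70 and 8.10. Upk3b, a mesothelial membrane protein of the epicardial list, had 8.62 and 7.08. With equal numbers 2 of 13 fibroblast, 2 of 22 matrix and 1 of 7 epicardial genes had a gained promoter. The regions of Dcn, Mmp2 and Lama2 did not keep their class in this setting. The epicardial gene Wt1 had a lost promoter with equal numbers, and a shared promoter region with all peaks. Without P1 rep2 the fibroblast and matrix counts were 10 and 12, and the endothelial count 10, with 36.4% of all genes gained. By the class rule these counts could not fall when a P1 library was left out.

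Lost promoter regions of cardiomyocyte genes were few, and some of these genes had another promoter region with a peak at P3. Ckm, muscle creatine kinase, had a peak 24 bp from a start (chr7:19410824-19411177) with folds of 7.13 in P1 rep1 and 4.02 in P1 rep2. Actc1, cardiac alpha-actin, had 5.75 and 3.71, and Myl3, the ventricular essential light chain, 4.30 and 4.15. Ryr2, the calcium release channel of the sarcoplasmic reticulum, had 5.21 and 7.50, in a repeat 2197 bp from a start. The P3 libraries held no peak in these 4 regions by definition. Elsewhere within 2.5 kb of a start of the gene, both P3 libraries held a peak for Ckm (7.34 and 6.22) and Myl3 (9.60 and 4.98, a shared region), P3 rep1 alone for Ryr2, and neither for Actc1. P7 rep2 again held a peak in the Ckm, Actc1 and Myl3 regions, and E18.5 rep1 in those of Ckm and Actc1.

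Lost promoter regions of other heart genes were alike in strength. Nkx2-5, a homeobox factor of heart muscle, had folds of 5.67 in P1 rep1 and 6.08 in P1 rep2, and was held in both E18.5 libraries and P7 rep2. Cpt1b, the muscle transferase that admits fatty acids to mitochondria, had 4.94 and 4.93, and Acsl1, which activates fatty acids, 7.25 and 4.73, beside a shared promoter region. Trim72, a membrane repair protein of striated muscle, had 6.69 and 3.61, in a region with a MEF2 match and with no peak at E18.5 or P7. Tmod1, chosen after its values were seen, had 6.90 and 4.37. In all, 2 of 19 fatty acid oxidation genes and 1 of 15 cardiac transcription factors had a lost promoter.

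The cardiomyocyte list depended on P1 rep2 and on list length. With equal numbers 7 of 20 promoters were lost (Tnnt2, Tnni1, Myh6, Myl3, Actc1, Ryr2 and Ckm) and none gained, where the background was 2.6% lost. With all peaks only Myl3, Actc1, Ryr2 and Ckm of these 7 were lost. Myh6 then had neither a gained nor a lost promoter, and held a promoter peak in P3 rep2. Tnnt2 and Tnni1 had shared promoter regions with all peaks. Their folds in P3 rep1 and P3 rep2 were 4.32 and 5.29 for Tnnt2 and 6.07 and 4.06 for Tnni1. Without P1 rep2 12 of 20 were lost, where the background was 3.86%, and 2 gained. Ckm, Actc1, Myl3 and Nkx2-5 were lost under all 7 settings run, which were all peaks, equal numbers, repeats left out and each library left out. By the class rule a lost region stays lost when any library is left out. These 4 lost regions were not repeats, so only equal numbers could have changed their class.

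Energy and cell cycle genes had gained promoters at about the background with all peaks. Of 19 glycolysis genes 8 had a gained and none a lost promoter, and 12 had a shared one. Pfkm, the muscle phosphofructokinase, had gained peaks with folds of 8.21 and 9.17 near 1 start and 9.96 and 7.77 at another. Both E18.5 libraries held a peak in the first of these regions, and E18.5 rep2 in the second. Gpi1 had 7.28 and 7.54 in the region printed above. Of 19 fatty acid oxidation genes 6, of 20 cell cycle genes 6 and of 15 calcium handling and ion channel genes 5 had gained promoters. With equal numbers 3 glycolysis genes had a gained (Gpi1, Pfkm and Pfkp) and 3 a lost promoter (Hk1, Pfkp and Pgam2). The gained and lost counts were then 0 and 3 for fatty acid oxidation, 1 and 1 for cell cycle (Plk1 gained and Cdkn1a lost), and 1 and 3 for calcium handling and ion channel genes. Hk1, Pfkp, Pgam2 and Cdkn1a had shared promoter regions with all peaks. Plk1, a mitotic kinase, had folds of 7.61 and 8.14 in a gained region that both E18.5 libraries held. Mef2c, of the MEF2 family, had 4 gained regions at its several starts, and Cacna1c, the L-type calcium channel pore, also 4.

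The smaller lists were near or below background for gained promoters. They were 4 of 10 smooth muscle and pericyte genes, 2 of 10 macrophage genes, 1 of 10 erythroid genes, 2 of 10 AP1 family genes and 3 of 10 housekeeping genes, none with a lost promoter. With equal numbers 1 AP1 family gene had a gained (Fosl1) and 1 a lost promoter (Fos), and 2 housekeeping genes a gained one. Fos had shared promoter regions with all peaks. Of 18 genes the study names, 8 had a gained and 1 (Trim72) a lost promoter, and that list was chosen by the study on these samples. Atf3, an AP1 family gene among them, had a gained region 1672 bp from a start with folds of 6.59 in P3 rep1 and 7.62 in P3 rep2 and a shared region at a start.

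**Figure D4:**
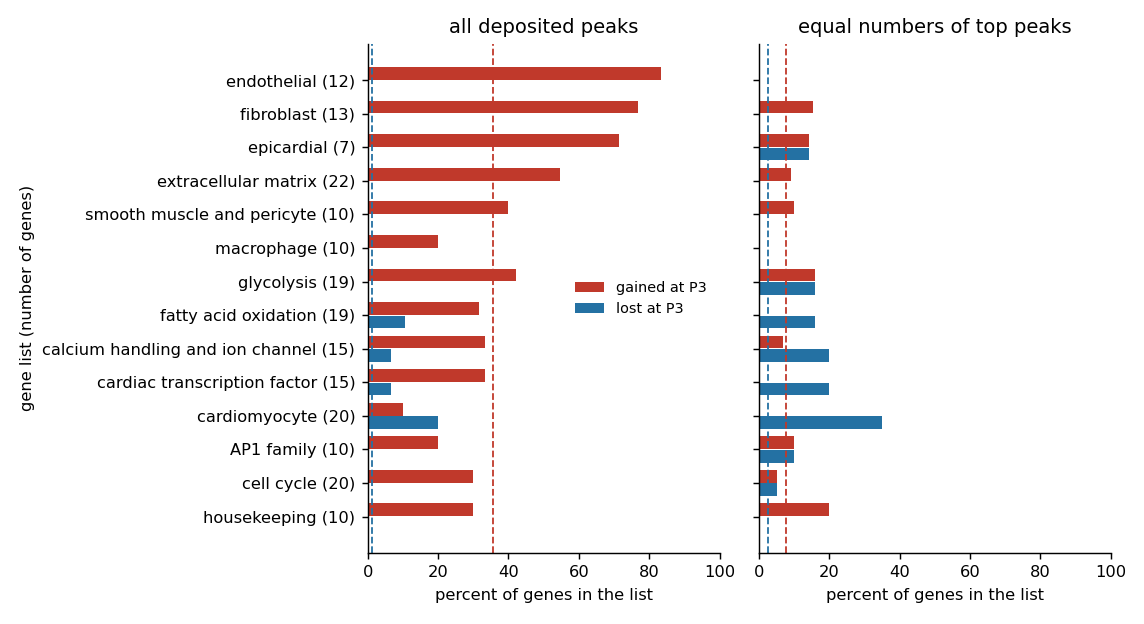
Percent of the genes of each list (x axis, lists with their size on the y axis) that have a gained (red) or lost (blue) region within 2.5 kb of a start, with all peaks (left) and equal numbers of top peaks (right). Dashed lines are the percents over the 13979 genes tested in RNA; 10 of 12 endothelial genes are gained on the left and none on the right, and 4 of 20 cardiomyocyte genes are lost on the left and 7 on the right.

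Regions held by all 4 libraries also differed in strength. The log2 summit fold enrichment, centred on each library's median, was compared with limma over 7672 shared regions. At an adjusted p under 0.05, 247 (3.22%) were higher and 545 (7.10%) lower at P3. The higher ones had median folds of 6.53 and 4.22 in the P1 libraries and 12.5 and 13.2 in the P3 libraries, and the lower ones 8.89 and 6.87 against 5.53 and 6.09. AP1 letters were in 27.5% of the higher, 2.94% of the lower and 10.5% of the other shared regions. Promoters were 36.8%, 50.3% and 72.6% of them. Without centring, where the median region was 0.48 higher at P3 on the log2 scale, only 12 and 10 regions were called, so the numbers hold for changes relative to that median. The numbers called higher and lower were 156 and 273 without P1 rep2, 35 and 274 without P3 rep1, and 78 and 249 without P3 rep2.

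Some promoters of AP1 genes were among the lower shared regions, 3 of the 9 shared promoter regions of the AP1 family. The start of Fosl2, a FOS-family partner of AP1, had folds of 8.74 and 6.63 in P1 rep1 and rep2 and 4.69 and 5.21 in P3 rep1 and rep2, with the P3 values below both P1 values. Its centred log2 difference was −1.16 (limma adjusted p = 0.000717). One shared promoter region each of Junb (−0.94) and Jun (−0.76), also AP1 subunits, was lower as well, and for Jun the value in P3 rep2 (6.86) was above both P1 values (6.58 and 6.53). Their second regions and those of Fos, Atf3 and Jund were not called. Also lower were regions of Tbx20, a cardiac T-box factor (−1.02), and of the glycolysis genes Pfkp (−1.06) and Gapdh (−1.03), while a second Pfkp region was not called (0.15). Shared promoter regions of the housekeeping genes Eef1a1, Polr2a and Ywhaz were lower too (−0.84, −0.82 and −0.77). For Eef1a1 the fold in P3 rep2 (9.15) was above both P1 values (8.04 and 8.23). For Polr2a (6.35 against 6.16) and Ywhaz (5.85 against 4.68) the fold in P3 rep2 was above that in P1 rep2. In the matrix list a region of Lamc1 (−0.80) was lower, and in the cell cycle list one of Cdkn1a (−0.93). One of Adamts1, named by the study, was lower too (−0.89). Second regions of Cdkn1a and Adamts1 were not called. Higher ones in the lists were those of Mcm3, of the replication helicase in the cell cycle list, and Col6a2, a collagen VI chain in the matrix list.

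RNA was not used to choose the regions and was compared as FPKM, fragments counted relative to transcript length and library size, over 4 ages in 1 limma fit on log2(FPKM + 1). Library depth was 36.0 and 37.5 M aligned reads at P1 and 37.4 and 34.8 M at P3, worked out from the coverage. A gene counted as called when its adjusted p was below 0.05 and its fold change exceeded 1 in size on the log2 scale. By this rule 2 of 13979 genes (0.0143%) were higher and 0 (0.0%) lower at P3, with 811 higher and 766 lower at an unadjusted p under 0.05. Without the RNA library P1 rep1 18 were higher and 17 lower, and without any other single P1 or P3 library 0 passed in either direction. Genes whose P1 and P3 values did not overlap numbered 3347 higher (23.9%) and 2814 lower (20.1%).

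Slc36a1, a proton-coupled amino acid carrier, was among the called genes. It was at 1.40 and 1.28 FPKM at P1 and 6.38 and 6.67 at P3, with no overlap and a log2 fold change of 1.69 ± 0.162 (SE, limma adjusted p = 0.0408), and had neither a gained nor a lost promoter.

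Genes with a gained promoter were close to all genes in RNA. The 4890 genes with a gained and no lost promoter had a median log2 fold change of 0.04, and 57.5% of them were above 0, against a median of 0.02 and 54.2% for all genes. Among them 1329 were higher and 914 lower without overlap. Ccn5, a matricellular growth regulator, had the largest difference among the non-overlapping ones, with 2.69 and 1.32 FPKM at P1 and 10.2 and 11.1 at P3 (1.99 ± 0.245, limma adjusted p = 0.0586). Lbp (1.67), Ly6a (1.54) and Ednrb (1.51) were also among the highest, and none of these 4 passed the test. In the other direction were Vnn1 (−1.77), Tnni1, the slow skeletal troponin I of the fetal heart (−1.67), Crhr2 (−1.57), the T-type calcium channel Cacna1g (−1.57) and the adenylyl cyclase Adcy5 (−1.36), none of which passed the test.

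Genes with a lost and no gained promoter were mostly lower in RNA, above all outside repeats. These 77 had a median of −0.08, with 29 (37.7%) above 0, 13 higher and 28 lower without overlap. The other 77 genes with a lost promoter had a gained one too, with a median of 0.04 and 44 (57.1%) above 0. The 63 genes with a lost promoter region outside repeats, with or without a gained one, had a median of −0.28, with 16 (25.4%) above 0. For the 39 of them without a gained one the median was −0.37, with 7 (17.9%) above 0, 3 higher and 21 lower without overlap. With equal numbers this median was −0.13 over 272 genes, and without P1 rep2 in the peak comparison −0.17 over 216 genes. None of these genes passed the RNA test. The 39 include predicted genes of very high level, such as Gm28661, at 5902 and 6561 FPKM at P1 and 5781 and 5215 at P3. They also include both Trim72 and Gm15533, an antisense gene that overlaps the lost region of Trim72. The 39 genes may therefore not all be separate cases.

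Ckm led this group. It was at 96.5 and 162 FPKM in P1 rep1 and rep2 and at 39.5 and 24.8 in P3 rep1 and rep2, both P3 values below both P1 values (−1.96 ± 0.501, limma adjusted p = 0.240). Actc1 was at 3095 and 5347 FPKM at P1 and 1843 and 1753 at P3 (−1.18), and Myl3 at 1404 and 1988 against 929 and 590.2 (−1.17). Tmod1, which had a gained promoter region as well, was at 50.1 and 75.4 FPKM at P1 and 23.9 and 25.4 at P3 (−1.29). Nkx2-5 differed by −0.94, Trim72 by −0.75, Cpt1b by −0.57 and Acsl1 by −0.36 on the log2 scale, with no adjusted p under 0.05. Among the highest of the genes with a lost promoter were Zfp260 (0.64), Gm10443 (0.61), Arhgef15 (0.30) and Ptpn9 (0.24), with repeats at their lost regions, and 6820431F20Rik (0.29), outside repeats. Ryr2 (−1.02) and the mitochondrial carrier Slc25a12 (−1.01), with repeats, were among the lowest.

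**Figure D5:**
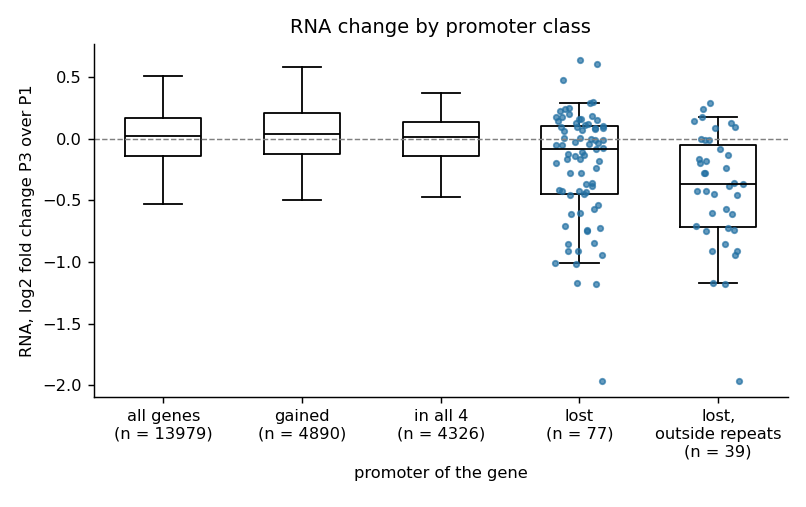
Log2 fold change of RNA, P3 over P1 (y axis), by class of the gene's promoter region (x axis); boxes show the quartiles and median, whiskers span the 5 to 95 percentiles, and points are single genes. The median is 0.04 for 4890 genes with a gained and no lost promoter. It is −0.37 for 39 genes with a lost promoter outside repeats and no gained one.

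Cardiomyocyte markers made up the largest summed level of the cell type lists in all 4 RNA libraries, and the levels of several lists differed between the ages. All 20 cardiomyocyte markers were lower at P3 without overlap, with a median of −1.03, and their summed level was 17628 and 26677 FPKM at P1 and 11572 and 9538 at P3. Over all genes the shares without overlap were 23.9% higher and 20.1% lower. Endothelial markers were higher without overlap in 11 of 12, with a median of 0.64 and sums of 473 and 436 against 691 and 785. Fibroblast markers were higher in 9 of 13, with a median of 0.30 and sums of 1835 and 2093 against 2407 and 2593. Smooth muscle and pericyte markers were higher in 5 and lower in 2 of 10 (0.51), macrophage markers higher in 4 of 9 (0.10) and epicardial markers higher in 1 and lower in 2 of 7 (−0.42). No member of these lists passed the limma test. Erythroid markers, 7 of them tested, had a median of −0.69 and sums of 8.18 and 41.0 against 4.70 and 10.2.

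In these bulk samples fewer cells of a type and less RNA or open chromatin per cell cannot be told apart. The part of the cell makeup in the gained endothelial and fibroblast promoters and in the lost cardiomyocyte promoters was not tested. Among the endothelial genes with gained promoters Pecam1 was at 43.6 and 37.9 FPKM at P1 and 56.6 and 62.9 at P3 (0.54), and Tek at 7.01 and 7.29 against 13.6 and 15.7 (0.94). Dcn was at 393 and 412 against 489 and 481 (0.27), and Postn, periostin of activated fibroblasts, at 66.5 and 41.0 against 112 and 115 (1.10). The values of the 2 ages do not overlap for any of these 4, and none passed the test.

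The remaining lists were described in the same way, against 23.9% of all genes higher and 20.1% lower without overlap. Calcium handling and ion channel genes were lower in 13 and higher in 0 of 14 (median −0.86), cardiac transcription factors lower in 12 and higher in 1 of 15 (−0.44), and fatty acid oxidation genes lower in 14 and higher in 1 of 19 (−0.32). Extracellular matrix genes were higher in 13 and lower in 0 of 22 (0.32). Glycolysis genes were lower in 7 and higher in 3 of 19 (−0.20). The higher counts of the last 3 lists were near the share of all genes, with cell cycle genes higher in 5 and lower in 1 of 20 (0.15), housekeeping genes higher in 3 and lower in 1 of 10 (0.14), and AP1 family genes higher in 2 and lower in 2 of 10 (0.08). The lists share members and libraries and were not compared by a test.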

How the data were processed

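The authors trimmed ATAC-seq reads with cutadapt, aligned them with Bowtie2, removed duplicates with Picard and called peaks per library with MACS2. The deposited peak lists give, from the authors' run, a score, the summit fold enrichment (a ratio of signal to background), −log10 p and −log10 q. Equal numbers were taken by −log10 q. The deposited transcript files, made by the authors with HISAT2 2.1.0 and StringTie 1.3.5 on GENCODE vM21, hold FPKM, TPM and coverage. All transcript starts in them were used. FPKM was summed per gene, and genes with at least 1 FPKM in at least 2 mouse libraries were tested.

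Regions were merged at 1 shared base with Python 3.11.15, pandas 2.3.3 and NumPy 2.4.6, intervals came from SciPy 1.17.1, figures from matplotlib 3.10.9 and tests from limma 3.58.1 in R 4.3.3 (trend, two-sided, Benjamini-Hochberg over all genes or shared regions). The fit steps were tested on simulated data. Sequence and soft-masking came from GRCm38.p6, and motif letters were matched exactly. Intervals cover counting error only, and p-values the spread between the libraries described as biological replicates. Summit fold enrichment depends on a library's background, and short lists leave weak peaks out. Reads of the peak lists, and so their depth, were not used here.

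The members and gene lists were chosen with earlier results of these data known. Named are the genes the study names, list members, the 5 strongest regions of each class at and away from promoters that kept their class with equal numbers, and the 5 genes per direction with the largest non-overlapping RNA difference among those with a gained or lost promoter. The repeat measure, and the settings without repeats, were added after the data were seen. HiChIP and rat libraries were not analysed here. The values of 1 gene that the naming rule picked are not reported here. The alternatives tried were equal numbers, the upper 50% of each list, summit windows, other promoter limits, starts and motif windows, other filters, scalings and pseudocounts, each library left out, and a replicate block.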

Additional observations from a re-analysis of the deposited data

How the results depend on the processing

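Counts of gained and lost regions moved with list length, which differed between the ages. The number of gained regions was 4735 with equal numbers and 14140 with the upper 50% of each list, and 30874 to 73301 with a library left out. Lost regions numbered 1070 with the upper 50%, 436 with repeats left out, and 2426 to 9869 with a library left out. In both counts the cause was not tested.

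Replicate numbers did not pair the libraries: deviations of same-numbered libraries from their age's mean had r = 0.0447 in RNA and −0.00918 in summit enrichment. With the replicate number as a block, here a count within each number, 74216 and 43889 regions were gained within numbers 1 and 2 and 6761 and 11296 lost. With equal numbers and the replicate block it was 13692 and 12954 gained and 12367 and 12655 lost. The replicate block gave 0 genes higher in RNA.

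The promoter share of gained regions was 21.4% at 1 kb, 14.3% for starts of transcripts with at least 1 FPKM, and 27.2 to 34.8% with a library left out. That of lost regions was 21.5% with equal numbers, 6.10% at 1 kb, 3.15% for those starts, 22.2% with repeats left out, and 13.1 to 16.3% with a library left out. The AP1 share of gained regions was 27.7% in 400 bp around the midpoint, 30.4% with equal numbers, 26.7% away from promoters, and 18.9 to 22.5% with a library left out. The MEF2 share of lost regions was 1.87% in 400 bp, 1.95% with equal numbers, 3.67% with repeats left out, and 0.449 to 2.61% with a library left out.

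Of shared regions, 12 were higher and 10 lower without centring, 255 lower after quantile normalization, and 35 to 285 higher and 249 to 765 lower with a library left out, the fewest higher without P3 rep1. Genes higher in RNA numbered 0 with no filter, 1 at a mean FPKM of at least 5, 0 with TPM, 0 with P1 and P3 libraries only, and 0 to 18 with a library left out; genes lower numbered 0 to 17, and in both cases the highest count was without P1 rep1. The median RNA change was 0.0035 for gained promoters with no filter and 0.025 to 0.067 with a library left out. For lost promoters it was 0 with no filter, −0.14 at a mean FPKM of at least 5 and at 1 kb, −0.37 with repeats left out, and −0.17 to −0.043 with a library left out. None of the 30 named genes changed the sign of its RNA difference under 11 alternatives. Genes named for values without overlap cannot change sign when a library is left out, so no conclusion is drawn from this.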

Other observations

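Gained regions were spread over many genes. Each region was given to the nearest start of a gene tested in RNA, up to 50 kb away. The median gene had 1 gained region, 5336 of 13969 genes had none and 109 had 10 or more. Genes with the most were Foxp1, a forkhead repressor of the developing heart, with 22 regions (5 with AP1 letters), and Dst, a cytoskeletal linker, with 19 (4 with AP1 letters). These genes were chosen after their values were seen. Foxp1 was at 11.97 and 14.4 FPKM at P1 and at 12.2 and 13.4 at P3, and Dst at 31.2 and 37.9 against 29.2 and 41.3, so the values of the ages overlap for both genes.

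Most regions of the 4 lists were in neither class. P3 rep1 alone held 42189 regions, and 11527 regions were in 1 P1 library only. Of the gained regions, the strongest 10% were held in P7 rep1 in 97.9% and in P7 rep2 in 74.0%, and the weakest 10% in 27.4% and 13.3%.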
